A study of Homo sapiens with 18 samples.

Results

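The SR proteins, the heterogeneous nuclear ribonucleoproteins (hnRNPs) and the CLK and SRPK kinases are regulators of pre-mRNA splicing, and their mRNA counts were followed here in all 18 libraries of the series. Members were chosen by gene symbol alone: every SRSF gene, every HNRNP gene that is not a pseudogene, and the CLK and SRPK genes. The rule gave 44 genes of the 60642 in the count files, made up of 12 SR proteins, 25 hnRNPs, 4 CLK kinases and 3 SRPK kinases. The cells were MDA-MB-231, an established human triple-negative breast cancer line. They received a SMART-pool siRNA for 48 h, either non-specific (siNS), against HP1γ (siHP1g; the gene is CBX3) or against PRMT5 (siPRMT5). Each culture was given 100 nM dexamethasone (Dex), a ligand of the glucocorticoid receptor, or the same volume of ethanol (Eth) for 8 h. The 6 groups were therefore siNS Eth, siNS Dex, siHP1g Eth, siHP1g Dex, siPRMT5 Eth and siPRMT5 Dex, with 3 libraries each, described as biological replicates. The study asked how HP1γ and PRMT5 contribute to gene regulation by the glucocorticoid receptor. Library totals ran from 8682992 to 12472381 counts.

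Introns are removed by the spliceosome, and the choice of splice sites depends on proteins that bind the pre-mRNA around them. SR proteins have RNA-binding domains and a tail rich in arginine and serine, and they mostly promote exon inclusion from exonic enhancers, whereas many hnRNPs bind silencers and oppose them. SRPK kinases phosphorylate the arginine-serine tail mainly in the cytoplasm, which allows import into the nucleus, and CLK kinases add further phosphates in the nucleus and release SR proteins from speckles. PRMT5 places symmetric dimethyl marks on arginines, among others of the Sm proteins of the spliceosome, and HP1γ is a chromatin protein that binds methylated histone tails.

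Values are given in CPM, the usual depth-adjusted read count of a gene, with library totals scaled by the trimmed mean of M values (TMM), and fold changes are on the log2 scale with 95% intervals. Tests were edgeR quasi-likelihood tests over 15298 genes with enough counts, with Benjamini-Hochberg adjusted p over all of them. A difference between depleted and control cells passed at an adjusted p under 0.05, and a Dex response passed at an adjusted p under 0.01 with a fold change of at least 1.5. One siRNA pool was used for each gene, so an effect of the pool and loss of the target cannot be told apart. Reads had been mapped with Bowtie2, which does not split reads over introns, and the counting annotation, its strand setting, the read length and whether the Lexogen kit reads whole transcripts or their 3′ ends are not given in the sources used here. Gene counts do not show which isoforms were made. In these bulk samples, fewer cells of a kind and less RNA per cell cannot be told apart. The cells carried the markers of the line: vimentin (VIM) ran from 5444 to 9592 CPM, CD44 from 506 to 857 CPM and the glucocorticoid receptor gene NR3C1 from 116 to 186 CPM. CAV1 ran from 369.8 to 824 CPM and AXL from 182 to 1003 CPM. ESR1 and PGR had 0 to 2 counts in a library and CDH1 0 to 1, while ERBB2 ran from 24.5 to 36.0 CPM and EPCAM from 8.57 to 14.0 CPM. The leukocyte genes PTPRC and CD3E had at most 2 and 1 counts in a library, and CD14 1 to 11. Of the endothelial genes CDH5 had 0 to 7 counts and PECAM1 10 to 81 (1.10 to 8.15 CPM). The luminal gene KRT8 ran from 167 to 330.3 CPM, GATA3 from 2.68 to 7.48 CPM and FOXA1 from 3.27 to 10.3 CPM.

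Both siRNA targets were low in every library that received their siRNA. PRMT5 counted 226, 262 and 259 CPM in siNS Eth and 8.37, 7.75 and 6.10 CPM in siPRMT5 Eth. With Dex it counted 244, 247 and 226 CPM in siNS and 11.5, 10.6 and 9.39 CPM in siPRMT5. No siPRMT5 library came near a control library. CBX3 counted 274, 234 and 258 CPM in siNS Eth and 9.23, 9.91 and 10.5 CPM in siHP1g Eth, and 220.4, 241 and 229 CPM in siNS Dex and 15.8, 14.0 and 11.4 CPM in siHP1g Dex. No siHP1g library came near a control library for CBX3 either. PRMT5 itself counted 211, 206 and 209 CPM in siHP1g Eth and 177, 199 and 189 CPM in siHP1g Dex, below all siNS libraries of the same treatment. The log2 differences were -0.25 (95% interval -0.41 to -0.10, adjusted p = 0.0111) and -0.35 (95% interval -0.50 to -0.19, adjusted p = 0.00123). In Eth the first was lost without siNS Eth replicate 2 (0.0501), and its adjusted p ranged from 0.00193 to 0.0501 over 25 alternative settings that keep this threshold. CBX3 in siPRMT5 cells counted 225, 218 and 229 CPM in Eth and 258, 288 and 227 CPM in Dex, and neither difference from siNS passed (adjusted p = 0.0717 and 0.12).

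Of the 44 members, 37 had enough counts to be tested: 11 SR proteins, 21 hnRNPs, 3 CLK kinases and 2 SRPK kinases. The 7 others were near or at 0. CLK2 had 0 counts in all 18 libraries while its processed pseudogene CLK2P1 held 1734, and whether reads of CLK2 were assigned elsewhere was not tested. HNRNPCL2, HNRNPCL3 and HNRNPCL4 were also at 0, HNRNPCL1 reached at most 5 counts in a library, SRPK3 at most 2 and SRSF12 at most 1. Per kilobase of annotated exon in siNS Eth, the highest level was that of HNRNPF, a binder of G-rich RNA, at 174 ± 8.38 CPM per kb (SD, n = 3). SRSF2, which sits in nuclear speckles and acts during transcription, stood at 143 ± 3.76 CPM per kb and HNRNPAB at 141 ± 9.29 CPM per kb, within each other's spread. HNRNPA2B1 followed at 108 ± 3.36 CPM per kb. On the same per-kb scale SRPK1, at 71.5 ± 3.22 CPM per kb, stood above SRPK2 at 8.19 ± 0.309, and CLK1 at 24.5 ± 2.45 stood above CLK4 at 3.75 ± 0.465 and CLK3 at 2.44 ± 0.169. HNRNPA1L2, an intronless copy of HNRNPA1, was at 4.60 ± 0.759 CPM per kb. These lengths merge all annotated exons of a gene, so the levels are approximate. Division by length is also apt only if the kit reads whole transcripts, which is not known. By mean CPM in siNS Eth, HNRNPA2B1 (1366) and HNRNPU (725) stood above HNRNPF (571), and CLK3 (48.1) above CLK4 (29.7). Together the members held between 0.926% and 1.07% of the counts of a library. The 3 siPRMT5 Dex libraries, at 1.05% to 1.07%, lay above every other library, and the siHP1g Eth libraries, at 0.926% to 0.959%, lay among the lowest.

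Some members share sequence with other genes, which matters where strand was not used in counting. HNRNPA2B1 (chr7:26171151-26201529, minus strand, hg38) lies head to head with CBX3, the target of siHP1g. Their annotated exons share 368 bases, 2.92% of the exonic length of HNRNPA2B1, and 1207 more of its exonic bases (9.57%) are shared with NFE2L3. SRPK1 (chr6:35832966-35921342, minus strand) shares 28.1% of its exonic length with LHFPL5 on the opposite strand, HNRNPA3 53.6% with NFE2L2, SRSF9 43.6% with GATC and SRSF2 27.7% with MFSD11. HNRNPUL2 shares 44.3% with the read-through gene HNRNPUL2-BSCL2 on its own strand. Also on their own strand, HNRNPA1L2 shares 100% with an unnamed long noncoding RNA gene and SRSF1 32.7% with an unnamed protein-coding gene. Neither of these other genes has a symbol in the count files. Pseudogenes of HNRNPA1 held 81.4% as many counts as HNRNPA1 itself, spread over 75 pseudogene symbols. The same ratio, of pseudogene counts to the counts of the gene itself, was 66.7% for HNRNPL, 52.9% for HNRNPK, 48.4% for HNRNPA3 and 33.4% for HNRNPC. How reads were divided between these genes and their copies was not tested.

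After depletion of HP1γ in Eth, 16 of 37 members passed (43.2%), 3 higher and 13 lower, against 31.8% of all genes tested, with 16.5% higher and 15.2% lower. The members' median log2 fold change was -0.12, against 0.01 over all genes. Scaling by library size alone gave 10 members, 6 higher and 4 lower, of which 7 were among the 16, and moved the share of higher genes among all that passed from 52.1% to 63.8%. In Dex, siHP1g gave 7 members (18.9%), 2 higher and 5 lower, against 24.0% of all genes (11.7% higher, 12.3% lower), so the share is near the background and not a result about the members. The median there was -0.05 with TMM and turned to 0.03 with library size alone, where 6 members were higher and 2 lower and the share of higher genes went from 48.7% to 69.2%. TMM factors moved with the group: 1.02 to 1.03 in siHP1g Eth and 1.03 to 1.04 in siHP1g Dex, against 0.981 to 0.987 in siNS Eth and 0.969 to 0.984 in siNS Dex. The counts with library size alone, given above, are those without these factors. The count in Eth fell to 8 (1 higher, 7 lower) with no filter on low counts, to 9 without siNS Eth replicate 1, to 8 without siNS Eth replicate 3, and to 10 without siHP1g Eth replicate 1 or 3. In Dex it was 4 without siHP1g Dex replicate 1, without siHP1g Dex replicate 2 or without siNS Dex replicate 3.

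Depletion of PRMT5 changed members in both directions. In Eth, 14 of 37 passed (37.8%), 6 higher and 8 lower, against 42.1% of all genes (20.6% higher, 21.6% lower). In Dex, 17 passed (45.9%), 12 higher and 5 lower, against 42.4% of all genes (20.6% higher, 21.9% lower). Both total shares are near the background and are not results about the members. The medians were -0.02 in Eth and 0.05 in Dex, against 0.00 over all genes in each, and library size alone gave the same splits of 6 and 8 and of 12 and 5. Comparisons of siHP1g and of siPRMT5 with siNS in the same treatment share the siNS libraries, so their values stand side by side below and no overlap between them is given.

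**Figure D1:**
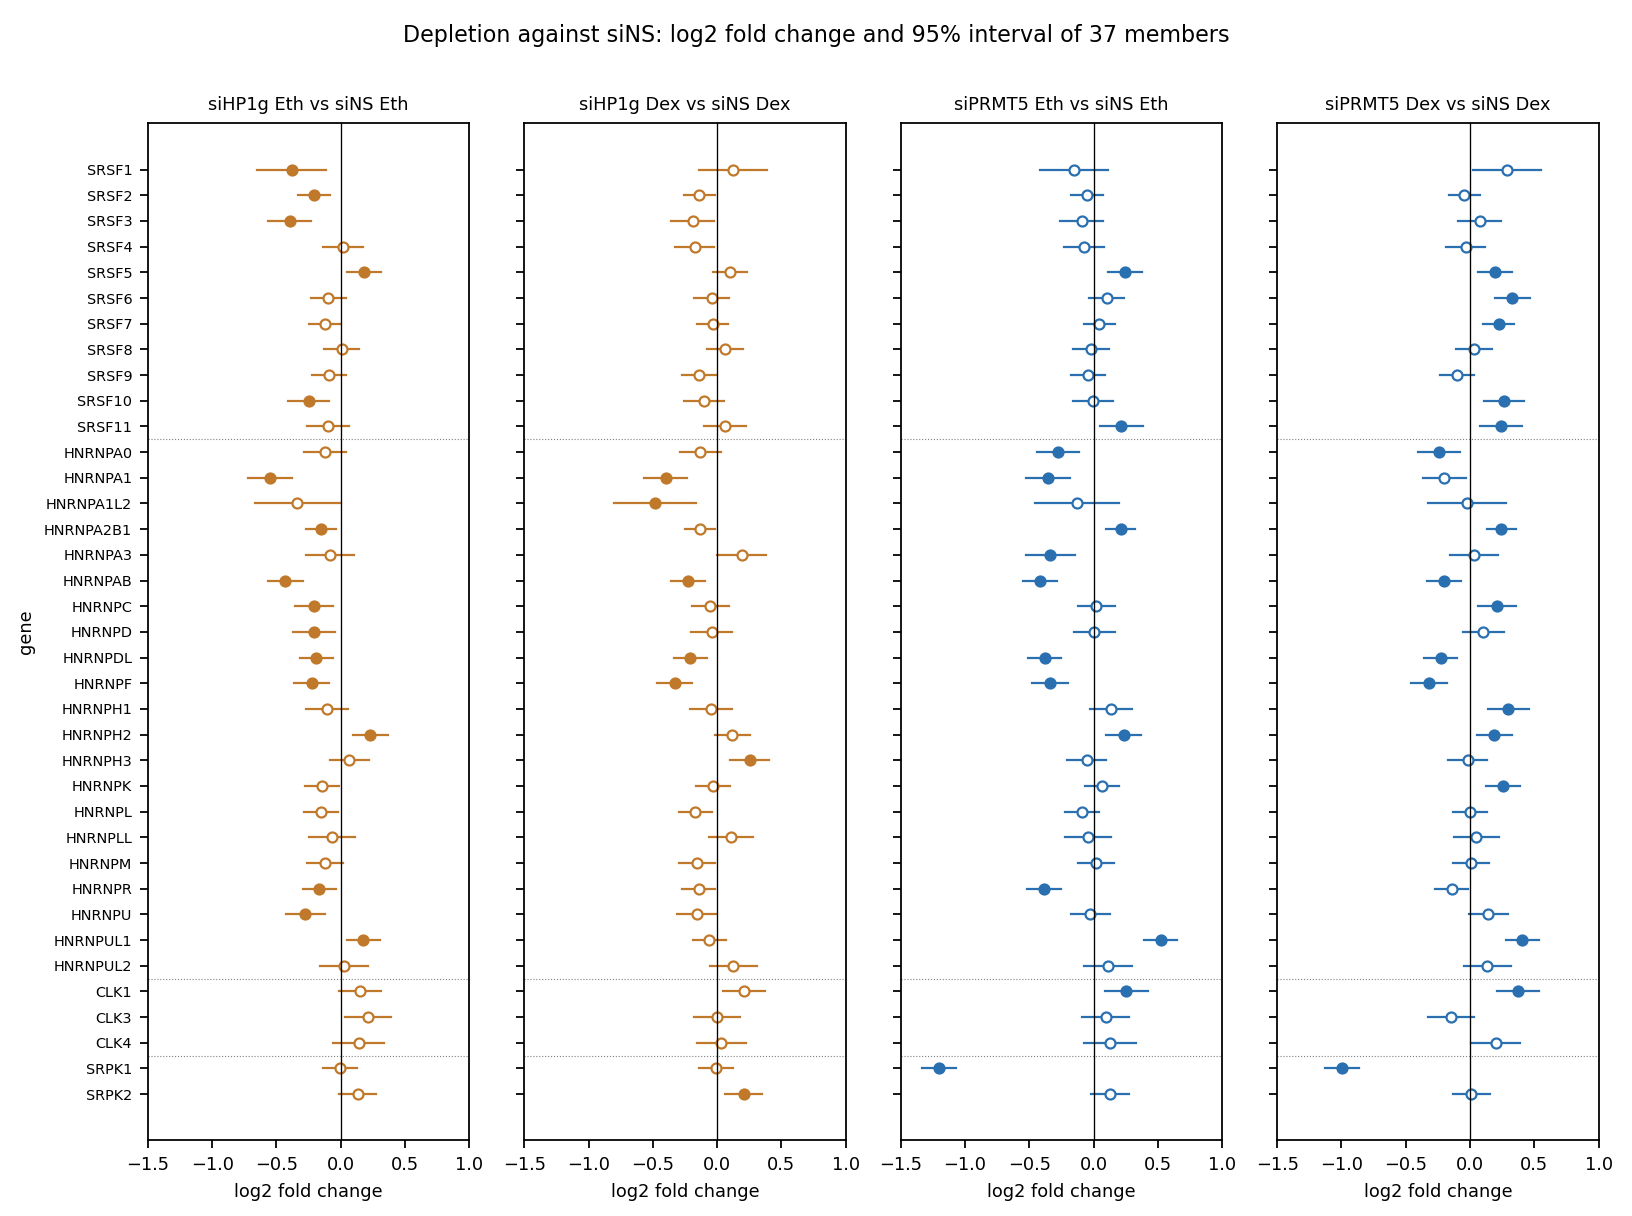
Log2 fold change (x axis) of 37 tested members (y axis, ordered by family) in siHP1g and siPRMT5 cells against siNS cells of the same treatment, with 95% intervals as lines and filled points for an adjusted p under 0.05. SRPK1 stands apart in the siPRMT5 panels at -1.20 (Eth) and -0.99 (Dex), while in siHP1g it lies at -0.00 and -0.01 and turns to 0.05 and 0.07 with library size alone.

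Among the SR proteins, 2 of 11 passed after PRMT5 depletion in Eth (18.2%, against 42.1% of all genes) and 5 of 11 in Dex (45.5%, against 42.4%), each of them higher than siNS (20.6% of all genes were higher in each). The Eth share is below the background and the total share in Dex near it. The count in Eth was 1 without siNS Eth replicate 2 or 3 or siPRMT5 Eth replicate 2. SRSF6, a splicing activator that binds exonic enhancers, counted 194, 173 and 196 CPM in siNS Dex and 239, 239 and 230.3 CPM in siPRMT5 Dex. All 3 depleted libraries lay above all control libraries, and they were also above siPRMT5 Eth (198, 189 and 205 CPM). The difference in Dex was 0.33 (95% interval 0.19 to 0.46, adjusted p = 0.000233). In Eth the siNS libraries counted 193, 171 and 187 CPM, the groups overlapped and the log2 difference was 0.10 (95% interval -0.03 to 0.24, adjusted p = 0.228). SRSF10, which represses splicing when dephosphorylated, counted 223, 224 and 227 CPM in siNS Dex against 270.1, 276 and 265 CPM in siPRMT5 Dex, again without overlap. It rose by 0.27 (95% interval 0.11 to 0.42, adjusted p = 0.00588). In Eth the counts of SRSF10 were 249, 213 and 221 CPM in siNS and 229.9, 229 and 222 CPM in siPRMT5. Those groups overlapped, and the difference of -0.01 (95% interval -0.16 to 0.15, adjusted p = 0.959) turned to 0.01 with library size alone. That the rises in SRSF6 and SRSF10 passed in Dex and not in Eth does not show that they differ: the interaction terms were 0.23 (adjusted p = 0.18) and 0.27 (adjusted p = 0.157).

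SRSF11, an SR protein with a single RNA-binding domain, counted 267, 219 and 231 CPM in siNS Eth and 271, 309 and 254 CPM in siPRMT5 Eth. With Dex it counted 228, 229.8 and 252 CPM in siNS and 284, 274 and 281 CPM in siPRMT5. Libraries of the same group spread widely in Eth, where siNS Eth replicate 1 lay inside the depleted range, while in Dex the groups were apart. The log2 differences were 0.22 (95% interval 0.05 to 0.38, adjusted p = 0.0323) and 0.24 (95% interval 0.07 to 0.40, adjusted p = 0.0178). In Eth the call was lost without siNS Eth replicate 2 (0.176), siPRMT5 Eth replicate 2 (0.233) or siNS Eth replicate 3 (0.115), and with only the libraries of the compared groups (0.0541), and adjusted p ranged from 0.0067 to 0.233 over the alternatives. In Dex it was lost without siNS Dex replicate 1 (0.0644) or siNS Dex replicate 2 (0.0589), with a range from 0.0079 to 0.0644. SRSF5, an SR protein that binds exonic enhancers and was named after its values were seen, counted 221, 215 and 209.6 CPM in siNS Eth and 262, 253 and 250.2 CPM in siPRMT5 Eth, with every depleted library above every control. It rose by 0.25 (95% interval 0.11 to 0.38, adjusted p = 0.00325) in Eth and by 0.20 (95% interval 0.07 to 0.33, adjusted p = 0.015) in Dex. The latter was lost without siNS Dex replicate 3 (0.0653), and with no filter on low counts (0.0698), with adjusted p from 0.00286 to 0.0698. SRSF7, which also serves in mRNA export, rose in siPRMT5 Dex by 0.22 (95% interval 0.10 to 0.34, adjusted p = 0.00306). In Eth its difference of 0.05 (adjusted p = 0.574) did not pass, nor did the interaction of 0.18 (adjusted p = 0.24).

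After HP1γ depletion in Eth, 5 of 11 SR proteins passed (45.5%, against 31.8% of all genes), 1 higher and 4 lower (15.2% of all genes were lower), and with library size alone 1 higher and 1 lower. The count was 2 without siNS Eth replicate 1 and 3 without siNS Eth replicate 3 or siHP1g Eth replicate 1. SRSF3, the smallest SR protein, counted 427, 384 and 433 CPM in siNS Eth and 273, 325 and 348 CPM in siHP1g Eth. SRSF1, the founding member of the family, counted 129, 96.9 and 121 CPM and 78.0, 93.5 and 94.4 CPM in the same groups. For both genes every depleted library lay below every control library, although SRSF1 in siNS Eth replicate 2 came within a few CPM of the highest depleted library. SRSF3 changed by -0.40 (95% interval -0.56 to -0.23, adjusted p = 0.000536) and SRSF1 by -0.38 (95% interval -0.65 to -0.11, adjusted p = 0.026). The SRSF1 call was lost without siNS Eth replicate 1 (0.119), siHP1g Eth replicate 1 (0.123) or siNS Eth replicate 3 (0.0743), and with library size alone (0.055), and its adjusted p ranged from 0.000223 to 0.123 over the alternatives. SRSF10 was lower too, at 188, 194 and 193 CPM in siHP1g Eth, a change of -0.25 (95% interval -0.41 to -0.09, adjusted p = 0.0144) that was lost without siNS Eth replicate 1 (0.091), and with library size alone (0.0538), with a range from 0.00227 to 0.091. SRSF3, SRSF1, SRSF2 and SRSF7 were likewise named after their values were seen. SRSF2 changed by -0.21 (95% interval -0.33 to -0.08, adjusted p = 0.00992) and lost its call with library size alone (0.0706) or no filter on low counts (0.0504), with a range from 0.000459 to 0.0706. SRSF5 was the member that rose, by 0.18 (95% interval 0.05 to 0.31, adjusted p = 0.0332), and this call was lost without siNS Eth replicate 1, siPRMT5 Eth replicate 1, siHP1g Eth replicate 1, siNS Eth replicate 2, siNS Dex replicate 2, siPRMT5 Eth replicate 2, siHP1g Eth replicate 2, siNS Eth replicate 3 or siHP1g Eth replicate 3 (0.0564 to 0.17), and with no filter on low counts (0.0914), with adjusted p from 0.00643 to 0.17. In Dex, 0 of 11 SR proteins passed in siHP1g cells by edgeR, 4 had an unadjusted p under 0.05 (35.6% of all genes did, and 40.9% in Eth), and 1 passed by DESeq2. Their median of -0.04 turned to 0.04 with library size alone, where 1 passed, higher, and 1, lower, passed without siHP1g Dex replicate 3. SRSF1 in siHP1g Dex counted 137, 98.8 and 96.6 CPM against 109, 94.3 and 103 CPM in siNS Dex, and one library, siHP1g Dex replicate 1, stood well above the rest.

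**Figure D2:**
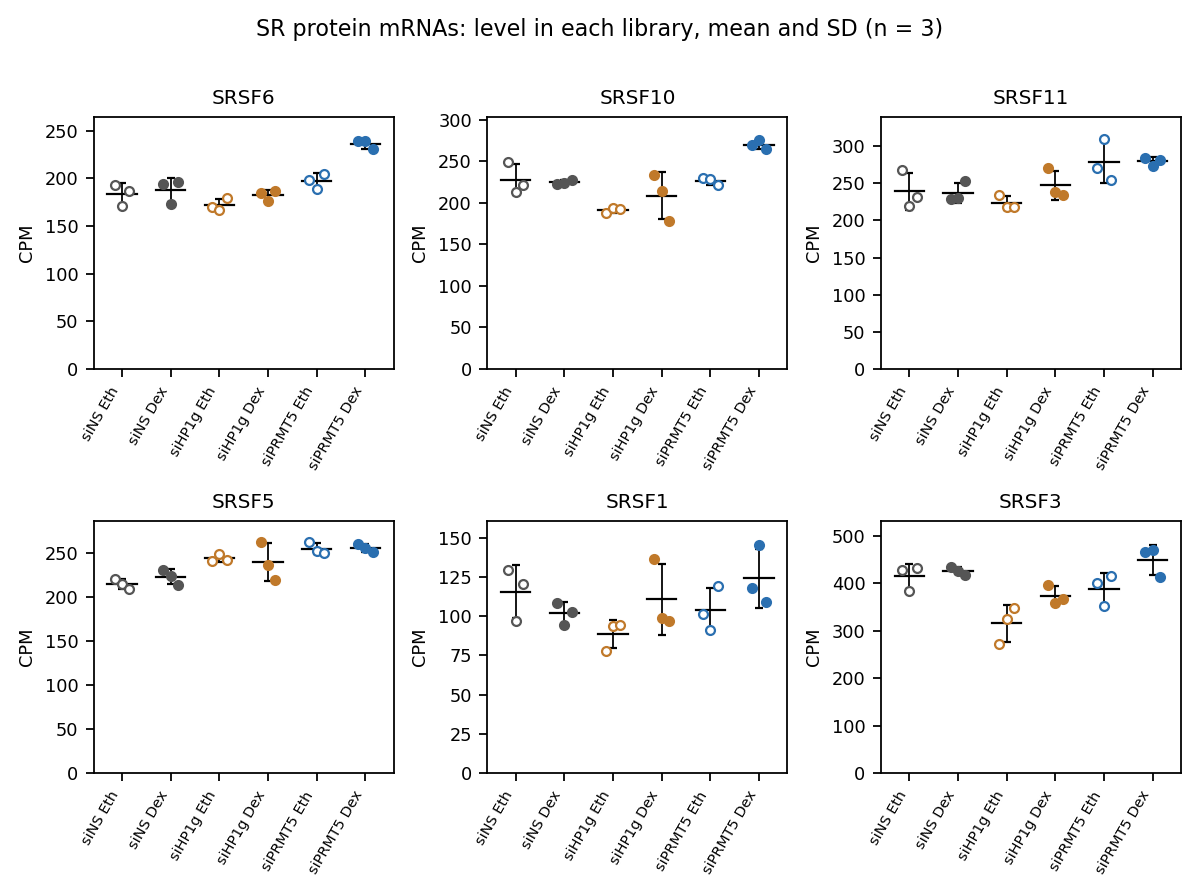
CPM (y axis, TMM-scaled, from 0) of SRSF6, SRSF10, SRSF11, SRSF5, SRSF1 and SRSF3 in each of 18 libraries by group (x axis), with open points for Eth, filled points for Dex, grey for siNS, orange for siHP1g and blue for siPRMT5, and lines for the mean and SD of 3 libraries. SRSF6 in siPRMT5 Dex lies at 236 ± 4.90 CPM above 188 ± 12.7 CPM in siNS Dex, and SRSF3 in siHP1g Eth at 315 ± 38.6 CPM below 415 ± 26.6 CPM in siNS Eth.

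HNRNPUL1 showed the largest rise of any tested member after PRMT5 depletion, in Eth as in Dex. It is an RNA-binding relative of HNRNPU that is also recruited to DNA breaks, and it lies at chr19:41262496-41307787 on the plus strand. It counted 547, 546 and 577 CPM in siNS Eth and 762, 809 and 826 CPM in siPRMT5 Eth. With Dex it counted 625, 585 and 584 CPM in siNS and 753, 790.5 and 833 CPM in siPRMT5. In each treatment all depleted libraries lay far above all controls. The log2 differences were 0.52 (95% interval 0.39 to 0.65, adjusted p = 2.06e-07) and 0.41 (95% interval 0.28 to 0.53, adjusted p = 8.69e-06), and both passed under all 25 alternatives that keep the threshold, but not at an adjusted p under 0.01 with a 1.5-fold change. In siHP1g Eth the counts of HNRNPUL1 were 662, 588 and 637 CPM, above siNS Eth, with a difference of 0.18 (95% interval 0.05 to 0.31, adjusted p = 0.0321) that was lost without siNS Eth replicate 1, siPRMT5 Eth replicate 1, siHP1g Eth replicate 1, siNS Eth replicate 2, siNS Dex replicate 2, siPRMT5 Eth replicate 2, siNS Eth replicate 3 or siHP1g Eth replicate 3 (0.0555 to 0.176), and with no filter on low counts (0.0616), and adjusted p ran from 0.00413 to 0.176. In siHP1g Dex they were 594, 559 and 564 CPM, which overlapped siNS Dex, and the difference of -0.06 turned to 0.02 with library size alone.

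HNRNPH1 and HNRNPK rose in siPRMT5 Dex, and their differences in Eth did not pass. HNRNPH1, which binds runs of G in exons and introns, counted 496, 463 and 466 CPM in siNS Dex and 587, 593 and 572 CPM in siPRMT5 Dex. HNRNPK, a binder of C-rich RNA through KH domains, counted 335, 350.2 and 344 CPM and 397, 424 and 408 CPM in the same groups. For each gene all 3 depleted libraries stood above all 3 controls. HNRNPH1 rose by 0.30 (95% interval 0.14 to 0.46, adjusted p = 0.00324) and HNRNPK by 0.26 (95% interval 0.12 to 0.39, adjusted p = 0.00228). In Eth, HNRNPH1 counted 483, 376 and 432 CPM in siNS and 465, 462 and 492 CPM in siPRMT5, and HNRNPK 371, 356 and 370.2 CPM and 372, 362 and 415 CPM. Both pairs of groups overlapped, with log2 differences of 0.14 (adjusted p = 0.173) and 0.07 (adjusted p = 0.438). The interaction terms did not pass, at 0.16 (adjusted p = 0.458) and 0.19 (adjusted p = 0.261). In siHP1g cells neither gene passed in Eth (-0.11 and -0.14) or in Dex, where -0.05 and -0.03 turned to 0.03 and 0.05 with library size alone.

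A group of hnRNPs was lower than siNS. HNRNPF counted 545, 599.8 and 568 CPM in siNS Eth, 474, 495 and 495 CPM in siHP1g Eth and 467, 470.2 and 418 CPM in siPRMT5 Eth. With Dex it counted 648, 686 and 618 CPM in siNS, 472, 533 and 547 CPM in siHP1g and 521, 505 and 539 CPM in siPRMT5. The control libraries were the highest in each treatment, with no overlap. The difference in siHP1g was -0.23 (95% interval -0.37 to -0.09, adjusted p = 0.0117) in Eth and -0.33 (95% interval -0.47 to -0.19, adjusted p = 0.000679) in Dex. The former was lost without siNS Eth replicate 2 (0.0538), and with library size alone (0.0548), with adjusted p from 0.00255 to 0.0548. In siPRMT5 it was -0.34 (95% interval -0.48 to -0.20, adjusted p = 0.000228) in Eth and -0.32 (95% interval -0.46 to -0.18, adjusted p = 0.00041) in Dex. HNRNPA1, a repressor that binds exonic and intronic silencers, counted 168, 139 and 159.7 CPM in siNS Eth, 108, 104 and 107 CPM in siHP1g Eth and 125, 119 and 120.4 CPM in siPRMT5 Eth. With Dex the counts were 169, 142 and 159, then 133, 113 and 109.8, then 146, 131 and 131 CPM. The siHP1g libraries lay below the siNS libraries in each treatment, and the siPRMT5 libraries did so in Eth but overlapped siNS in Dex. HNRNPA1 changed by -0.55 (95% interval -0.72 to -0.38, adjusted p = 1.54e-05) in siHP1g Eth, by -0.40 (95% interval -0.57 to -0.23, adjusted p = 0.000726) in siHP1g Dex and by -0.36 (95% interval -0.53 to -0.19, adjusted p = 0.00108) in siPRMT5 Eth, while the -0.20 (95% interval -0.37 to -0.03, adjusted p = 0.0513) in siPRMT5 Dex did not pass.

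HNRNPAB, which binds AU-rich RNA, and HNRNPDL, a close relative of HNRNPD, were named after their values were seen. HNRNPAB counted 302, 277 and 316 CPM in siNS Eth, 219.9, 215 and 229 CPM in siHP1g Eth and 226, 219 and 224 CPM in siPRMT5 Eth. Both depleted groups lay well below the controls. The changes in Eth were -0.43 (95% interval -0.56 to -0.30, adjusted p = 1.48e-05) and -0.42 (95% interval -0.55 to -0.29, adjusted p = 9.71e-06). In Dex they were -0.23 (95% interval -0.36 to -0.09, adjusted p = 0.0116) and -0.20 (95% interval -0.34 to -0.07, adjusted p = 0.0131). The Dex call in siHP1g was lost without siNS Dex replicate 1 (0.0811) or siHP1g Dex replicate 2 (0.0649), and with library size alone (0.105), ranging from 0.00261 to 0.105, and in siPRMT5 it was lost without siNS Dex replicate 1 (0.104), ranging from 0.00979 to 0.104. HNRNPDL counted 449.5, 439 and 452 CPM in siNS Eth and 345, 353 and 332 CPM in siPRMT5 Eth, and with Dex 478, 508 and 480.0 CPM and 414, 429 and 407 CPM. The depleted libraries were again the lower ones, without overlap. It changed by -0.38 (95% interval -0.51 to -0.25, adjusted p = 2.13e-05) in Eth and by -0.23 (95% interval -0.36 to -0.10, adjusted p = 0.00413) in Dex. In siHP1g it changed by -0.19 (95% interval -0.32 to -0.06, adjusted p = 0.0221) in Eth, lost without siHP1g Eth replicate 2 (0.071) or siHP1g Eth replicate 3 (0.0797), and with library size alone (0.101) or no filter on low counts (0.0834), with a range from 0.00617 to 0.101, and by -0.21 (95% interval -0.34 to -0.08, adjusted p = 0.0153) in Dex, lost without siNS Dex replicate 2 (0.0613), siHP1g Dex replicate 2 (0.0868) or siHP1g Dex replicate 3 (0.0617), and with library size alone (0.128) or only the libraries of the compared groups (0.0659), with a range from 0.00216 to 0.128.

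The 250 bases before 1 start site each of HNRNPUL1, HNRNPAB and HNRNPDL are shown. HNRNPUL1 rose most after PRMT5 depletion, and HNRNPAB and HNRNPDL were lower than siNS after each depletion. HNRNPF was lower after each depletion too and is not shown. The depletions share siNS libraries, so this choice of genes is not a result. They were read from RefSeq promoters on GRCh38.p14, at chr19:41264122-41264371 (plus strand) for HNRNPUL1, chr5:178204283-178204532 (plus strand) for HNRNPAB and chr4:82430463-82430712 (minus strand) for HNRNPDL. HNRNPUL1 has 3 entries there and HNRNPDL 2, and the entry at the start of the MANE Select transcript is shown; that of HNRNPUL1 lies inside the gene's annotated span, past its first annotated start. None of these bases lies in an annotated exon of the gene shown. Whether they lie in exons of other genes was not tested. Capitals mark matches to any of 6 motifs searched on both strands, overlaps counted: CCAAT (the CCAAT box), GGGCGG (the GC box), CACGTG (an E-box), TGACGTCA (the cAMP response element), CCGGAAGT (an ETS site) and AGAACA (part of a glucocorticoid receptor element).
HNRNPUL1: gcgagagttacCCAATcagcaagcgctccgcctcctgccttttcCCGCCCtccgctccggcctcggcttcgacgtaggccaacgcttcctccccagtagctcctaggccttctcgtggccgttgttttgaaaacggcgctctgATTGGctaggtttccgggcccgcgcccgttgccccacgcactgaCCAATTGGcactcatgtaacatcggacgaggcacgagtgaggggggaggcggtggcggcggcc
HNRNPAB: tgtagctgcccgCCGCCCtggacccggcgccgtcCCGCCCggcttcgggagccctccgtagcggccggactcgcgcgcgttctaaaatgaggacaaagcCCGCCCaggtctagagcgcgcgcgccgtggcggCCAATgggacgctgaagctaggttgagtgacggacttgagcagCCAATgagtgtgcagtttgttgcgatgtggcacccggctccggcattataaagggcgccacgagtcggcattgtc
HNRNPDL: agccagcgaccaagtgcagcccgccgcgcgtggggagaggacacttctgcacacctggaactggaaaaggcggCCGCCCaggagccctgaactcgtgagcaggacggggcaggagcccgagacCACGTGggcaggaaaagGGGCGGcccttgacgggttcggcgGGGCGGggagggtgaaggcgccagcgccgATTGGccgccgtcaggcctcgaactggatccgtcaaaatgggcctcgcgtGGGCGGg
The HNRNPUL1 window held 4 matches to CCAAT and 1 to GGGCGG. The HNRNPAB window held 2 to CCAAT and 3 to GGGCGG, and the HNRNPDL window 1 to CCAAT, 4 to GGGCGG and 1 to CACGTG. The AGAACA letters were in none of the windows shown, but over its 3 entries HNRNPUL1 had 1 match to AGAACA and 2 to GGGCGG, and HNRNPDL had 7 to GGGCGG and 2 to CACGTG over its 2. The SRPK1 window, which overlaps annotated exons and is not printed, held 4 matches to GGGCGG and 1 to AGAACA. Over all 35116 RefSeq promoters of the same length, 32% held CCAAT, 42.6% GGGCGG, 6.34% CACGTG, 1.65% TGACGTCA, 3.42% CCGGAAGT and 12.4% AGAACA. Of the 37 tested members 35 had an entry, with 54 entries in all, of which 22 held CCAAT, 59.3% held GGGCGG, 14.8% CACGTG, 5.56% CCGGAAGT and 16.7% AGAACA, and 0 held TGACGTCA. A match describes letters and not a bound site.

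**Figure D3:**
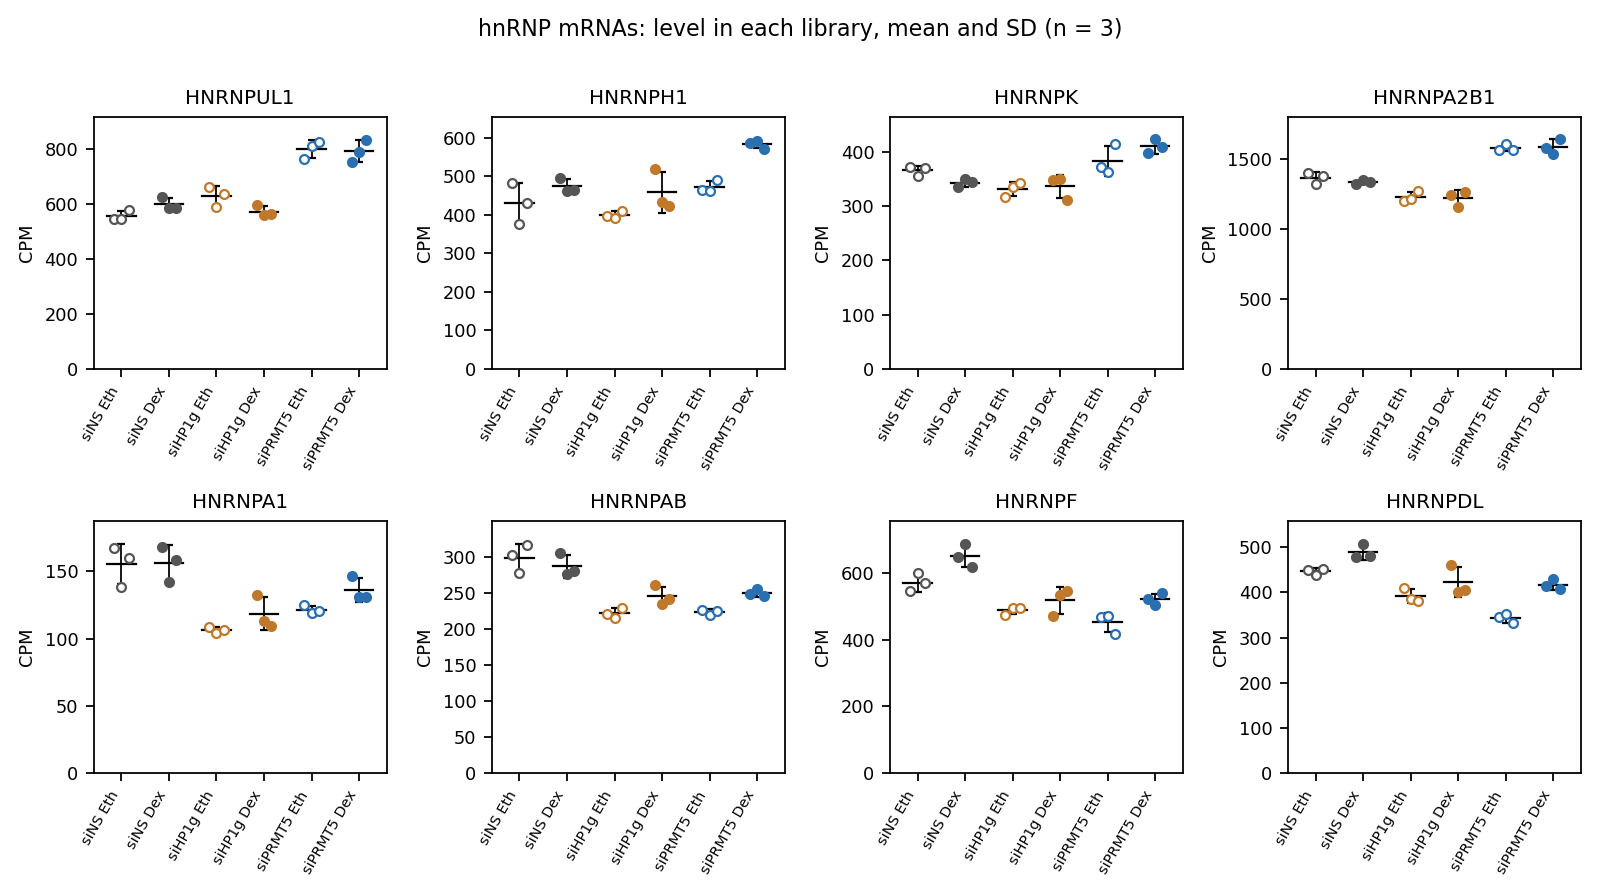
CPM (y axis, TMM-scaled, from 0) of HNRNPUL1, HNRNPH1, HNRNPK, HNRNPA2B1, HNRNPA1, HNRNPAB, HNRNPF and HNRNPDL in each of 18 libraries by group (x axis), with open points for Eth, filled for Dex, grey for siNS, orange for siHP1g, blue for siPRMT5, and lines for the mean and SD of 3 libraries. HNRNPUL1 in siPRMT5 Eth lies at 799 ± 33.1 CPM against 556 ± 17.9 CPM in siNS Eth, and HNRNPA1 in siHP1g Eth at 106 ± 2.21 CPM against 155 ± 14.9 CPM.

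HNRNPA2B1, which binds and carries many RNAs, needs its overlap with CBX3 in view. It counted 1402, 1319.5 and 1376 CPM in siNS Eth, 1201, 1215 and 1268 CPM in siHP1g Eth and 1565, 1610.4 and 1565 CPM in siPRMT5 Eth. With Dex the counts were 1322, 1353 and 1339 CPM in siNS, 1242, 1154 and 1262 CPM in siHP1g and 1580.1, 1533 and 1642 CPM in siPRMT5. The siHP1g libraries were the lowest and the siPRMT5 libraries the highest in each treatment. HNRNPA2B1 rose by 0.21 (95% interval 0.09 to 0.33, adjusted p = 0.00359) in siPRMT5 Eth and by 0.24 (95% interval 0.13 to 0.36, adjusted p = 0.000935) in siPRMT5 Dex. In siHP1g it differed by -0.15 (95% interval -0.27 to -0.04, adjusted p = 0.0382) in Eth and by -0.13 (95% interval -0.25 to -0.02, adjusted p = 0.0837) in Dex, of which the first passed. That call was lost without siNS Eth replicate 1, siHP1g Eth replicate 1, siHP1g Eth replicate 2 or siNS Eth replicate 3 (0.0692 to 0.103), and with library size alone (0.199) or no filter on low counts (0.152), and adjusted p ranged from 0.00347 to 0.199. CBX3 was itself at 9.23 to 10.5 CPM in siHP1g Eth, and its part in the HNRNPA2B1 counts there was not tested.

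Members named for siHP1g Dex included HNRNPA1L2 and HNRNPH3. HNRNPA1L2 counted 6.36, 6.97 and 6.53 CPM in siNS Dex and 4.57, 4.69 and 4.89 CPM in siHP1g Dex, where all libraries were lower than the controls. The difference was -0.49 (95% interval -0.81 to -0.17, adjusted p = 0.0229). It was lost without siHP1g Dex replicate 1, siNS Dex replicate 2, siHP1g Dex replicate 2 or siNS Dex replicate 3 (0.0528 to 0.0706), and with library size alone (0.0568), the DESeq2 Wald test (0.0712) or no filter on low counts (0.065), and adjusted p ranged from 0.0182 to 0.0712. HNRNPH3, a short relative of HNRNPH1, counted 160.1, 163 and 150.0 CPM in siNS Dex and 212, 181 and 171 CPM in siHP1g Dex. Its depleted libraries were all higher, with siHP1g Dex replicate 1 above the other two. The rise was 0.25 (95% interval 0.10 to 0.40, adjusted p = 0.0136), lost without siHP1g Dex replicate 1 (0.124) or siNS Dex replicate 3 (0.0754) and ranging from 0.00114 to 0.124. In all, 11 of 21 hnRNPs passed in siHP1g Eth (52.4%, against 31.8% of all genes), 2 higher and 9 lower (against 16.5% and 15.2% of all genes), and 2 and 3 with library size alone. In siHP1g Dex 6 passed (28.6%, against 24.0%), 1 higher and 5 lower, and 3 and 2 with library size alone. In siPRMT5, 10 passed in Eth (47.6%, against 42.1%; 3 higher, 7 lower) and 10 in Dex (47.6%, against 42.4%; 6 higher, 4 lower), with the same splits by library size alone. The shares in siHP1g Dex and in siPRMT5 are near the background. The count in siHP1g Eth was 5 without siNS Eth replicate 3, 6 without siNS Eth replicate 1 or siHP1g Eth replicate 2 or 3, and 7 without siHP1g Eth replicate 1, and that in siHP1g Dex was 3 without siHP1g Dex replicate 2. HNRNPU, a scaffold protein of the nuclear matrix, was lower in siHP1g Eth by -0.27 (95% interval -0.43 to -0.12, adjusted p = 0.00625), and HNRNPR, which binds and carries RNA in the cytoplasm, was lower in siPRMT5 Eth by -0.39 (95% interval -0.52 to -0.26, adjusted p = 1.93e-05), both chosen after their values were seen. In Dex the same differences did not pass, at -0.16 (adjusted p = 0.123) and -0.14 (adjusted p = 0.072), nor did the interactions (adjusted p = 0.619 and 0.12).

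Of the CLK kinases, CLK1 passed after PRMT5 depletion and neither CLK3 nor CLK4 did. CLK1, a dual-specificity kinase of the nucleus at chr2:200853009-200864691 on the minus strand, counted 140.0, 119 and 117 CPM in siNS Eth and 148, 159.9 and 142 CPM in siPRMT5 Eth. With Dex it counted 131, 125 and 134 CPM in siNS and 175, 176 and 152 CPM in siPRMT5. Depleted libraries were above controls throughout, though siNS Eth replicate 1 came within a few CPM of the lowest of them. CLK1 rose by 0.26 (95% interval 0.09 to 0.42, adjusted p = 0.0121) in Eth and by 0.37 (95% interval 0.21 to 0.53, adjusted p = 0.000459) in Dex. The Eth call was lost without siNS Eth replicate 2 (0.0622), siPRMT5 Eth replicate 2 (0.0706) or siNS Eth replicate 3 (0.0754), and adjusted p ranged from 0.00281 to 0.0754 over the alternatives. In siHP1g cells CLK1 counted 147, 137 and 134 CPM in Eth and 162, 146 and 140.5 CPM in Dex, with differences of 0.15 (95% interval -0.01 to 0.32, adjusted p = 0.159) and 0.21 (95% interval 0.04 to 0.37, adjusted p = 0.0611) that did not pass. The Dex libraries of siHP1g nevertheless all lay above those of siNS Dex.

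CLK3 and CLK4, nuclear kinases of the same family, were counted at lower levels. CLK3 counted 44.3, 50.1 and 49.9 CPM in siNS Eth, 62.5, 50.3 and 54.6 CPM in siHP1g Eth and 52.8, 54.7 and 46.9 CPM in siPRMT5 Eth. With Dex the counts were 51.5, 47.6 and 50.3 CPM in siNS, 46.7, 49.0 and 53.8 CPM in siHP1g and 45.6, 45.6 and 43.6 CPM in siPRMT5. The highest value was that of siHP1g Eth replicate 1, and the siPRMT5 Dex libraries were below all other Dex libraries. The log2 differences from siNS were 0.21 in siHP1g Eth (adjusted p = 0.0695), 0.09 in siPRMT5 Eth and -0.15 in siPRMT5 Dex (adjusted p = 0.183), and in siHP1g Dex the value of -0.00 went to 0.08 with library size alone. CLK4 counted 33.9, 28.3 and 26.9 CPM in siNS Eth, 32.6, 32.4 and 33.2 CPM in siHP1g Eth and 32.2, 31.9 and 33.1 CPM in siPRMT5 Eth. With Dex the counts were 32.3, 35.6 and 37.3 CPM in siNS, 38.7, 35.3 and 33.4 CPM in siHP1g and 39.6, 44.1 and 36.8 CPM in siPRMT5. Both depleted groups overlapped siNS in each treatment. The log2 differences for CLK4 ran from 0.03 in siHP1g Dex to 0.20 in siPRMT5 Dex, where adjusted p = 0.0852. By edgeR 0 of 3 CLK kinases passed in siHP1g Eth and 0 in siHP1g Dex (against 31.8% and 24.0% of all genes), 1 in each had an unadjusted p under 0.05 (against 40.9% and 35.6%), and 0 passed by DESeq2. With library size alone 2 passed in siHP1g Eth and 1 in siHP1g Dex, all higher, and 1, higher, passed in siHP1g Eth without siNS Eth replicate 1 or siHP1g Eth replicate 2 and in siHP1g Dex without siNS Eth replicate 1 or siHP1g Dex replicate 3. In siPRMT5 Dex 2 passed without siPRMT5 Dex replicate 3.

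SRPK1 fell further than any other tested member in any depletion. This kinase prepares SR proteins for import into the nucleus. It counted 503, 463 and 469 CPM in siNS Eth and 202, 207 and 215 CPM in siPRMT5 Eth. With Dex it counted 464, 447 and 473 CPM in siNS and 229, 249 and 218 CPM in siPRMT5. In siHP1g it counted 479, 469 and 483 CPM in Eth and 486, 460.4 and 429 CPM in Dex. The siPRMT5 libraries thus stood far below the rest, and the siHP1g libraries overlapped the controls. Mean SRPK1 in siPRMT5 was 43.5% of siNS in Eth and 50.2% in Dex, with log2 changes of -1.20 (95% interval -1.34 to -1.07, adjusted p = 1.28e-13) and -0.99 (95% interval -1.13 to -0.86, adjusted p = 4.06e-12). Over the 25 alternatives the changes stayed between -1.23 and -1.17 in Eth and between -1.04 and -0.95 in Dex, and all passed. SRPK1 in siHP1g differed from siNS by -0.00 in Eth (adjusted p = 0.974) and -0.01 in Dex (adjusted p = 0.93), values that turned to 0.05 and 0.07 with library size alone. Neither SRPK kinase passed in siHP1g Eth by edgeR (0 of 2, against 31.8% of all genes), 0 had an unadjusted p under 0.05 (against 40.9%), 0 passed by DESeq2, and 1 passed, higher, with library size alone.

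SRPK2, the other tested SRPK kinase, did not pass the test after PRMT5 depletion. It counted 64.0, 60.9 and 65.7 CPM in siNS Eth, 69.7, 68.8 and 69.8 CPM in siPRMT5 Eth and 68.8, 68.9 and 71.1 CPM in siHP1g Eth. With Dex the counts were 64.1, 58.6 and 59.6 CPM in siNS, 56.9, 63.6 and 63.1 CPM in siPRMT5 and 73.3, 67.8 and 69.5 CPM in siHP1g. Both depleted groups were above siNS in Eth, and in Dex the siHP1g libraries alone were. SRPK2 differed in siPRMT5 by 0.13 (95% interval -0.02 to 0.27, adjusted p = 0.154) in Eth and by 0.01 (95% interval -0.14 to 0.15, adjusted p = 0.926) in Dex, and neither passed. In siHP1g it differed by 0.13 (95% interval -0.01 to 0.28, adjusted p = 0.16) in Eth, which did not pass, and by 0.21 (95% interval 0.06 to 0.35, adjusted p = 0.031) in Dex, which did. The latter was lost without siHP1g Dex replicate 1, siNS Dex replicate 2, siNS Eth replicate 3, siNS Dex replicate 3 or siHP1g Dex replicate 3 (0.0501 to 0.133), and with no filter on low counts (0.178) or only the libraries of the compared groups (0.0952), and its adjusted p ranged from 0.00321 to 0.178.

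**Figure D4:**
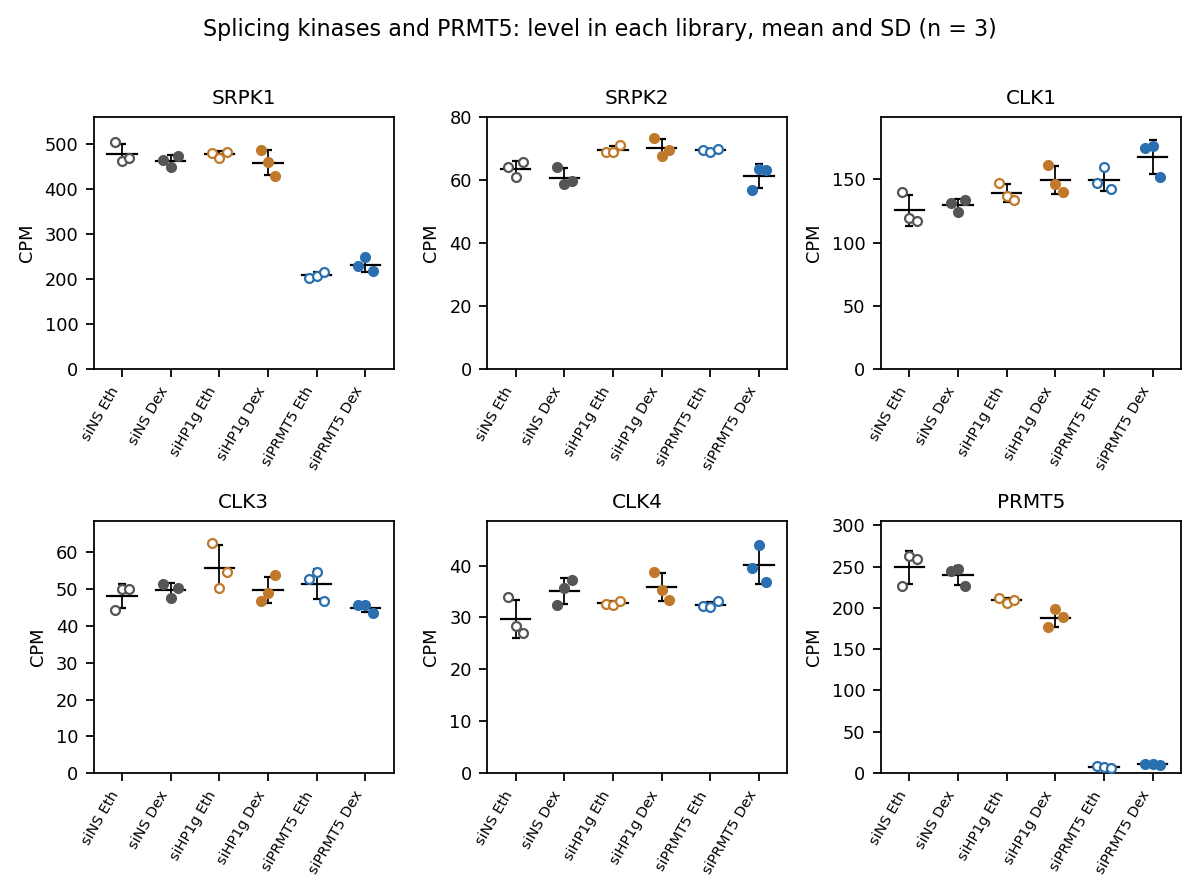
CPM (y axis, TMM-scaled, from 0) of SRPK1, SRPK2, CLK1, CLK3, CLK4 and the siRNA target PRMT5 in each of 18 libraries by group (x axis), with open points for Eth, filled for Dex, grey for siNS, orange for siHP1g, blue for siPRMT5, and lines for the mean and SD of 3 libraries. SRPK1 lies at 208 ± 6.63 CPM in siPRMT5 Eth and 232 ± 15.5 CPM in siPRMT5 Dex, against 478 ± 21.6 CPM and 461 ± 13.1 CPM in siNS.

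The depletions were also compared with each other, which needs no siNS library. In Eth, siPRMT5 differed from siHP1g in 17 of 37 members (45.9%, against 48.4% of all genes), 13 higher (35.1%, against 23.4%) and 4 lower (10.8%, against 25.0%). In Dex it differed in 17 (45.9%, against 49.9%), 14 higher (37.8%, against 24.4%) and 3 lower (8.11%, against 25.5%). The total shares are near the background and not results about the members. Library size alone gave 9 higher and 4 lower in Eth and 11 higher and 5 lower in Dex. The members' medians were 0.08 and 0.15, against -0.00 over all genes in each. SRPK1 was lower by -1.20 (95% interval -1.33 to -1.06, adjusted p = 1.21e-13) in Eth and by -0.98 (95% interval -1.12 to -0.85, adjusted p = 3.11e-12) in Dex. SRPK2 was lower in Dex by -0.20 (95% interval -0.34 to -0.05, adjusted p = 0.0209), which was lost without siPRMT5 Dex replicate 1 (0.142) or siHP1g Dex replicate 1 (0.0867), and with no filter on low counts (0.112) or only the libraries of the compared groups (0.0891) and ranged from 0.00284 to 0.142. In Eth the SRPK2 value of -0.00 did not pass.

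Most SR proteins and hnRNPs that differed between the depletions were higher in siPRMT5. In Eth 6 of 11 SR proteins passed (54.5%, against 48.4% of all genes) and in Dex 4 (36.4%, against 49.9%), each higher (against 23.4% and 24.4% of all genes), and with library size alone 3 and 4. Of the 21 hnRNPs 10 passed in Eth (47.6%; 7 higher, 3 lower) and 11 in Dex (52.4%; 10 higher, 1 lower), against the same shares of all genes, and with library size alone 6 higher and 3 lower in Eth and 7 higher and 2 lower in Dex. HNRNPUL1 was higher by 0.35 (95% interval 0.22 to 0.47, adjusted p = 5.69e-05) in Eth and 0.47 (95% interval 0.34 to 0.60, adjusted p = 7.33e-07) in Dex, and HNRNPA2B1 by 0.36 (95% interval 0.25 to 0.48, adjusted p = 7.37e-06) and 0.38 (95% interval 0.26 to 0.49, adjusted p = 3.66e-06). SRSF10 was higher by 0.24 (95% interval 0.08 to 0.40, adjusted p = 0.011) and 0.37 (95% interval 0.22 to 0.53, adjusted p = 0.000222), and HNRNPH1 by 0.24 (95% interval 0.08 to 0.41, adjusted p = 0.0132) and 0.35 (95% interval 0.19 to 0.51, adjusted p = 0.000645). SRSF3 was higher by 0.30 (95% interval 0.13 to 0.47, adjusted p = 0.00352) and 0.27 (95% interval 0.10 to 0.43, adjusted p = 0.00819). For these 5 genes all siPRMT5 libraries lay above all siHP1g libraries of the same treatment. SRSF6 was higher in Dex by 0.37 (95% interval 0.24 to 0.51, adjusted p = 4.23e-05) and in Eth by 0.20 (95% interval 0.06 to 0.34, adjusted p = 0.0152), where the call was lost without siHP1g Eth replicate 2 (0.0634) or siPRMT5 Eth replicate 3 (0.0572), and with library size alone (0.0532) or no filter on low counts (0.0548), ranging from 0.00418 to 0.0634. By edgeR 0 CLK kinases passed in Eth and 0 in Dex, 0 and 1 had an unadjusted p under 0.05 (54.2% and 55.8% of all genes did), and DESeq2 gave 0 in each, while library size alone gave 0 in Eth and 1, lower, in Dex, and 1, higher, passed in Dex without siHP1g Dex replicate 1 or siPRMT5 Dex replicate 3. In Eth the count of 17 members was 11, and that of hnRNPs 6, without siPRMT5 Eth replicate 3. In Dex the SR proteins were 7 without siHP1g Dex replicate 1 and the hnRNPs 7 without siPRMT5 Dex replicate 1.

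The Eth and Dex versions of a depletion share no library, and their calls can be set against each other. For siPRMT5 against siNS, 11 members passed in both treatments, 78.6% of the 14 in Eth and 64.7% of the 17 in Dex, all 11 with the same sign. Over all genes the shares were 67.6% and 67.2%. The 11 were SRPK1 (lower), CLK1, HNRNPUL1, HNRNPA2B1, HNRNPH2, SRSF5 and SRSF11 (higher), and HNRNPA0, HNRNPF, HNRNPAB and HNRNPDL (lower). For siHP1g, 4 members passed in both treatments, all lower: HNRNPA1, HNRNPAB, HNRNPDL and HNRNPF. They made 25.0% of the 16 in Eth and 57.1% of the 7 in Dex, against 47.4% and 62.8% over all genes. Of the 4, only HNRNPA1 kept both calls with library size alone. HNRNPAB and HNRNPDL lost the Dex call without siHP1g Dex replicate 2. Between the depletions 11 members passed in both treatments, 64.7% of each list of 17, against 78.4% and 76.0% over all genes. The losses given above for single members and libraries hold for these counts too. HNRNPA0 also lost its siPRMT5 Eth call without siPRMT5 Eth replicate 2 (adjusted p = 0.052). Its Dex call was lost without siNS Dex replicate 1 or 3 or siPRMT5 Dex replicate 2 or 3 (0.0513 to 0.12). HNRNPH2 lost its siPRMT5 Dex call without siNS Dex replicate 1 or 3 or siPRMT5 Dex replicate 3 (0.054 to 0.124), and with no filter (0.119). Without siNS Dex replicate 1, HNRNPA0, HNRNPAB, HNRNPH2 and SRSF11 all lost their siPRMT5 Dex calls.

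Dex changed no member past the threshold in any cells. In siNS cells 0 of 37 passed by edgeR, against 2.71% of all genes, and 0 by DESeq2. With no fold limit and an adjusted p under 0.05 there were also 0, against 9.16%, and 4 (10.8%) had an unadjusted p under 0.05, against 22.4%. The members' log2 responses in siNS had a median of 0.01 and ran from -0.18 for SRSF1 to 0.24 for CLK4. HNRNPF had the smallest adjusted p among members: its siNS Dex libraries all lay above its siNS Eth libraries, with a difference of 0.19 (95% interval 0.05 to 0.33, adjusted p = 0.0828). In siHP1g cells 0 passed by edgeR, against 1.67% of all genes, and 0 by DESeq2. There, 0 passed with no fold limit (5.55% of all genes), and 7 (18.9%) had an unadjusted p under 0.05, against 2753 of the 15298 genes.

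In siPRMT5 cells too, 0 members passed by edgeR, against 5.44% of all genes, and 0 by DESeq2. Yet 17 (45.9%) had an unadjusted p under 0.05, against 26.7% of all genes. With an adjusted p under 0.05 and no fold limit, an alternative chosen after seeing the data, 8 of 37 members passed, all higher with Dex, against 16.0% of all genes in either direction and 7.52% of all genes higher. They were CLK4, HNRNPDL, HNRNPF, HNRNPH1, HNRNPR, SRSF10, SRSF6 and SRSF7. Their log2 differences were small, from 0.21 for HNRNPF to 0.31 for CLK4. HNRNPH1 went from 465, 462 and 492 CPM in siPRMT5 Eth to 587, 593 and 572 CPM in siPRMT5 Dex, with no overlap, and SRSF6 from 198, 189 and 205 CPM to 239, 239 and 230.3 CPM, likewise. HNRNPH1 differed by 0.30 (95% interval 0.14 to 0.47, adjusted p = 0.00733) and SRSF6 by 0.26 (95% interval 0.12 to 0.39, adjusted p = 0.00652). Of the 37 members, 31 had a positive sign in siPRMT5 cells, against 7617 of the 15298 genes, and the median was 0.10, against 0.09 in siHP1g cells and -0.00 over all genes in each.

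**Figure D5:**
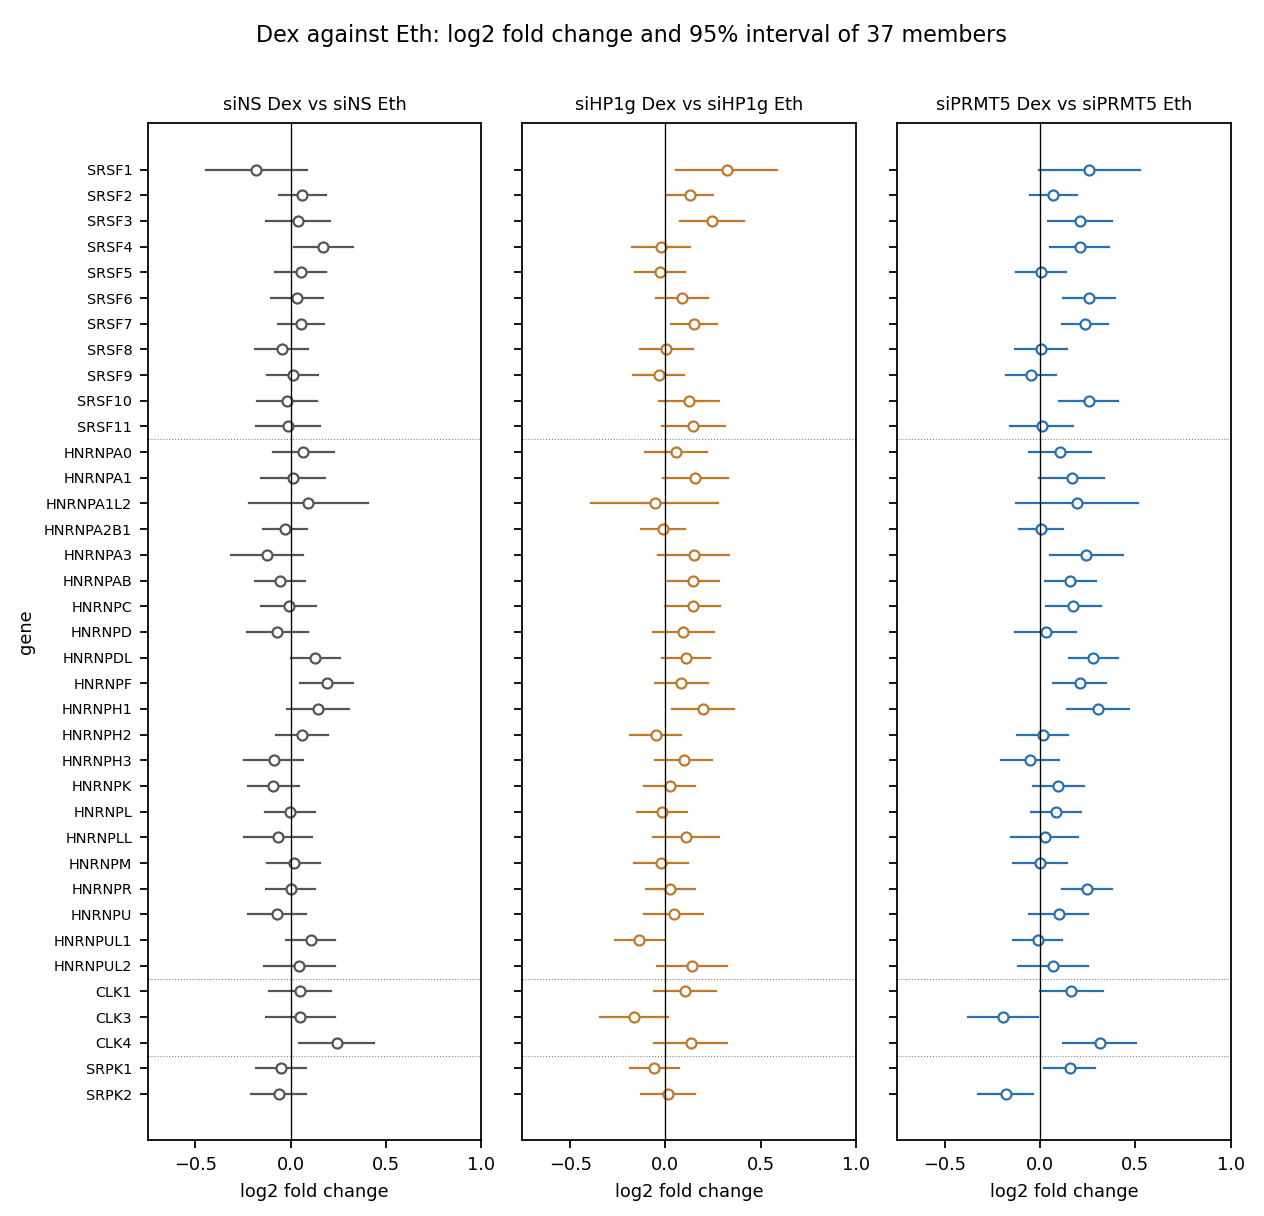
Log2 fold change of 37 tested members between Dex and Eth (x axis, 95% intervals as lines) in siNS, siHP1g and siPRMT5 cells, one panel each, with open points for members that did not pass an adjusted p under 0.01 and a 1.5-fold change. All points are open, and the median moves from 0.01 in siNS to 0.09 in siHP1g and 0.10 in siPRMT5 cells.

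The interaction terms test whether the Dex response differs between depleted and control cells. For siHP1g 0 of 37 members passed by edgeR, against 0.399% of all genes, 4 (10.8%) had an unadjusted p under 0.05, against 17.2%, and 0 passed by DESeq2. For siPRMT5 0 passed by edgeR, against 3.80% of all genes, 9 (24.3%) had an unadjusted p under 0.05, against 19.0%, and 0 passed by DESeq2. The medians of the terms were 0.05 and 0.09. SRSF1 had the largest terms in size, at 0.50 (95% interval 0.13 to 0.88, adjusted p = 0.163) for siHP1g and 0.44 (95% interval 0.06 to 0.81, adjusted p = 0.18) for siPRMT5, and it passed in each where no filter on low counts was used. Without siNS Eth replicate 2, 1 member, HNRNPA3, passed in the siPRMT5 interaction. For SRPK1 the siPRMT5 term was 0.21 (95% interval 0.02 to 0.40, adjusted p = 0.207), so its fall in Eth and in Dex was not shown to differ.

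Lists of other splicing genes give the setting, described by counts only. The SR-related proteins, such as TRA2A and SRRM2, which have arginine-serine stretches outside the SRSF family, held 25 tested genes. In siPRMT5, 13 passed in Eth (52.0%, against 42.1% of all genes; 11 higher, 2 lower) and 12 of 25 in Dex (against 42.4%; 11 higher, 1 lower, and 12 and 1 with library size alone), where 20.6% of all genes were higher in each, with medians of 0.13 and 0.17. NKTR, a cyclophilin with arginine-serine repeats, rose by 0.74 (95% interval 0.52 to 0.97, adjusted p = 5.6e-06) in Eth and 0.58 (95% interval 0.35 to 0.80, adjusted p = 0.000126) in Dex. ACIN1, a member of the exon junction complex periphery, rose in Eth by 0.59 (95% interval 0.44 to 0.74, adjusted p = 3.44e-07), and TRA2A, a splicing activator, in Dex by 0.67 (95% interval 0.51 to 0.83, adjusted p = 1.12e-07). RSRC1 was lower in Eth by -0.36 (95% interval -0.50 to -0.21, adjusted p = 0.000245) and in Dex by -0.38 (95% interval -0.52 to -0.23, adjusted p = 0.000105). In siHP1g the list had 5 that passed in Eth (20.0%, against 31.8%; 3 higher, 2 lower) and 4 in Dex (16.0%, against 24.0%; 1 higher, 3 lower), below the background in each, with medians of 0.00 and -0.05, the latter turning to 0.03 with library size alone, where 6 were higher and 1 lower in Eth and 3 higher and 2 lower in Dex. SRRM2, a scaffold of nuclear speckles, rose in siHP1g Eth by 0.51 (95% interval 0.30 to 0.72, adjusted p = 0.000399), SCAF1 rose by 0.46 (95% interval 0.26 to 0.67, adjusted p = 0.000959), and TRA2B was lower by -0.26 (95% interval -0.38 to -0.14, adjusted p = 0.00104). In siHP1g Dex, RSRC1 was lower by -0.33 (95% interval -0.48 to -0.19, adjusted p = 0.000933). Between the depletions 12 of 25 passed in Eth (against 48.4% of all genes; 11 higher in siPRMT5, 1 lower) and 15 of 25 in Dex (against 49.9%; 14 higher, 1 lower), and with library size alone 9 higher and 1 lower in Eth and 11 higher and 2 lower in Dex.

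Other splicing regulators, some of them hnRNP proteins under another symbol, held 31 tested genes of 33, ESRP1 and TAF15 having too few counts. In siHP1g 8 passed in Eth (25.8%, against 31.8% of all genes) and 5 in Dex (16.1%, against 24.0%), shares below the background, all lower (against 15.2% and 12.3% of all genes lower; 7 lower in Eth, and 2 higher and 3 lower in Dex, with library size alone), with medians of -0.09 and -0.09. CELF2, a regulator with RNA recognition motifs, was lower by -1.79 (95% interval -2.07 to -1.51, adjusted p = 2.3e-10) in siHP1g Eth and -1.69 (95% interval -1.98 to -1.41, adjusted p = 1.11e-09) in siHP1g Dex. In siPRMT5 8 passed in Eth (25.8%, against 42.1%; 4 higher, 4 lower) and 13 in Dex (41.9%, against 42.4%; 6 higher, 7 lower, and 7 and 5 with library size alone), below the background and near it. CELF2 was lower there by -1.32 (95% interval -1.58 to -1.05, adjusted p = 9.43e-09) and -1.38 (95% interval -1.66 to -1.11, adjusted p = 6.65e-09). KHSRP, which binds AU-rich and splicing elements, was lower in siPRMT5 Eth by -1.04 (95% interval -1.19 to -0.88, adjusted p = 2.13e-11), and ESRP2, an epithelial splicing factor, in siPRMT5 Dex by -1.49 (95% interval -2.25 to -0.72, adjusted p = 0.00206). KHSRP was also lower in siPRMT5 than in siHP1g, by -1.06 in Eth and -1.06 in Dex (adjusted p = 8.53e-12 and 7.57e-12). Its siPRMT5 Dex difference from siNS is not printed, as only the 2 largest falls that passed there were eligible. The omission does not show that KHSRP was unchanged in siPRMT5 Dex. PTBP2, the neural relative of PTBP1, rose in siPRMT5 Dex by 0.75 (95% interval 0.44 to 1.05, adjusted p = 0.000234), and QKI rose by 0.33 (95% interval 0.15 to 0.52, adjusted p = 0.0043) in Eth and 0.42 (95% interval 0.23 to 0.61, adjusted p = 0.000497) in Dex. PTBP2 also rose in siPRMT5 Eth by 0.46 (adjusted p = 0.0203), lost in 4 of 25 alternatives. In siHP1g Dex PTBP2 was lower by -0.45 (adjusted p = 0.0477), lost in 11 of 25. Between the depletions 15 passed in Eth (48.4%, as of all genes; 10 higher, 5 lower) and 12 in Dex (38.7%, against 49.9%; 10 higher, 2 lower), and with library size alone 8 higher and 6 lower in Eth and 6 higher and 5 lower in Dex. With a library left out the list gave 5 in siHP1g Eth (without siHP1g Eth replicate 1), 3 in siHP1g Dex (without any one of the siNS Dex libraries, siHP1g Eth replicate 2 or siHP1g Dex replicate 2), 5 in siPRMT5 Eth (without siPRMT5 Eth replicate 1 or siNS Eth replicate 3), 8 in siPRMT5 Dex (without siNS Dex replicate 2 or siPRMT5 Dex replicate 2) and 9 between the depletions in Eth (without siHP1g Eth replicate 2).

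Factors of the 3′ splice site and the U2 snRNP held 14 tested genes of 16, U2AF1 and PUF60 having too few counts. In siPRMT5 7 passed in Eth (50.0%, against 42.1% of all genes; 6 higher, 1 lower) and 8 in Dex (57.1%, against 42.4%; 6 higher, 2 lower). SF3A3, a subunit of the SF3a complex, was lower by -1.13 (95% interval -1.29 to -0.98, adjusted p = 6.13e-12) in Eth and -1.12 (95% interval -1.27 to -0.96, adjusted p = 5.86e-12) in Dex. SF3B3, a subunit of SF3b, rose by 0.49 (95% interval 0.36 to 0.63, adjusted p = 1.67e-06) and 0.56 (95% interval 0.42 to 0.70, adjusted p = 2.73e-07), and DDX46, a helicase that joins the U2 snRNP, by 0.46 (95% interval 0.30 to 0.61, adjusted p = 3.44e-05) and 0.48 (95% interval 0.32 to 0.64, adjusted p = 1.7e-05). In siHP1g 3 passed in Eth (21.4%, against 31.8%), 1 higher and 2 lower, and 1 and 1 with library size alone. In Dex 4 passed (28.6%, against 24.0%), a share near the background. All 4 were lower (against 12.3% of all genes lower), and 1 was lower with library size alone. The helicase DHX15 was lower in Eth and in Dex, at -0.23 (95% interval -0.36 to -0.10, adjusted p = 0.00562) and -0.26 (95% interval -0.39 to -0.13, adjusted p = 0.00286). The count in Eth was 1, lower, without siNS Eth replicate 2 or siHP1g Eth replicate 3, and DESeq2 size factors gave 0 higher and 2 lower. The higher gene, SF3A1 (adjusted p = 0.0492), did not pass in 19 of 25 alternatives, 16 of them with a library left out. In Dex the count was 1 without siHP1g Dex replicate 1 and 2 without siNS Dex replicate 1 or 3 or siHP1g Dex replicate 2. Between the depletions 8 passed in Eth (57.1%, against 48.4%; 6 higher, 2 lower) and 8 in Dex (57.1%, against 49.9%; 7 higher, 1 lower).

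Other kinases, phosphatases and import factors of SR proteins held 15 tested genes. In siPRMT5 7 passed in Eth (46.7%, against 42.1% of all genes; 4 higher, 3 lower) and 10 in Dex (66.7%, against 42.4%; 6 higher, 4 lower). DYRK2, a kinase, rose by 0.47 (95% interval 0.29 to 0.65, adjusted p = 7.81e-05) and 0.37 (95% interval 0.20 to 0.55, adjusted p = 0.001), and DYRK3, which dissolves speckles and other condensates, was lower by -0.45 (95% interval -0.64 to -0.26, adjusted p = 0.000258) and -0.48 (95% interval -0.68 to -0.29, adjusted p = 0.00016). PPM1G, a phosphatase with splicing substrates, was lower in Dex by -0.58 (95% interval -0.80 to -0.37, adjusted p = 6.05e-05). The largest rise of this list in siPRMT5 Dex was that of PPP1CB, by 0.69 (adjusted p = 2.74e-05). PPP1CB was lower in siHP1g Eth, by -0.64 (adjusted p = 0.000152). In siHP1g 5 passed in Eth (33.3%, against 31.8%; 3 higher, 2 lower, and 5 and 2 with library size alone) and 2 in Dex (13.3%, against 24.0%; 1 higher, 1 lower, and 4 and 1 with library size alone). The count in Eth was 2 without siNS Eth replicate 3 and 3 without siHP1g Eth replicate 1. PPP1CC, a catalytic subunit of protein phosphatase PP1, was lower by -1.11 (95% interval -1.31 to -0.90, adjusted p = 6.61e-09) in siHP1g Eth, by -0.77 (95% interval -0.98 to -0.57, adjusted p = 2.16e-06) in siHP1g Dex and by -0.75 (95% interval -0.95 to -0.54, adjusted p = 1.04e-06) in siPRMT5 Eth. Its siPRMT5 Dex value is not printed, as PPP1CC was not among the 2 largest falls that passed there. The omission does not show that PPP1CC was unchanged in siPRMT5 Dex. Between the depletions 7 passed in Eth (46.7%, against 48.4%; 5 higher, 2 lower) and 8 in Dex (53.3%, against 49.9%; 5 higher, 3 lower), and with library size alone 4 higher and 4 lower in Eth and 3 higher and 3 lower in Dex. Dex in siNS cells gave 0 in each of the lists by edgeR and 0 by DESeq2, with 2, 0, 0 and 3 genes at an adjusted p under 0.05 and no fold limit (9.16% of all genes) and 5, 4, 0 and 4 at an unadjusted p under 0.05 (22.4% of all genes) in the order given. For the siHP1g interaction each list had 0 by edgeR (against 0.399% of all genes), with 4, 2, 2 and 4 at an unadjusted p under 0.05 (against 17.2%) and 2, 0, 0 and 0 by DESeq2, and leaving out a library gave up to 2 in the SR-related list. For the siPRMT5 interaction the SR-related, regulator and U2 lists had 0 (against 3.80% of all genes), with 2, 2 and 0 at an unadjusted p under 0.05 (against 19.0%) and 0 by DESeq2 (up to 1 regulator with a library left out), and the kinase and phosphatase list had 1, PPP1CB, whose values are given separately.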

How the data were processed

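RNA was extracted from 18 MDA-MB-231 cultures and sequenced from Lexogen libraries. The deposited files hold raw counts per gene symbol, which the authors made by mapping to hg38 with Bowtie2 2.4.2 and counting with HTSeq 0.9.1; the submitters' notes also name DESeq2 2.11.40.7. The authors' table of their own comparisons was not used. Genes were filtered by expression over the 6 groups, scaled by TMM and fitted over all 18 libraries with edgeR 4.0.16 in R 4.3.3 (12 residual degrees of freedom). P-values were adjusted by Benjamini-Hochberg over 15298 genes, and the code was tested on simulated data. Alternatives were DESeq2 1.42.0, its size factors, library size alone, no filter, a replicate block, pseudogene counts added, only the compared groups, exchanged thresholds and each library left out. Exonic lengths and overlaps came from GENCODE 44. Library values were named for all tested CLK and SRPK genes, the 3 SR proteins and 4 hnRNPs with the largest change past the threshold in each depletion with Dex, HNRNPA2B1, PRMT5 and CBX3, and in each other list the 2 largest changes in each direction were eligible. Most eligible list genes that lost their call under an alternative were not printed. Examples are RBFOX2 (-0.96) and DYRK1B (0.60) in siHP1g Eth and SRRM1 (-0.38) in siHP1g Dex. Some eligible list genes that kept their call under all 25 alternatives were not printed either. Between the depletions these include PTBP2 (1.14) and PCBP2 (-0.40) in Eth, and PTBP3 (0.77) and DYRK3 (-0.78) in Dex. The members and lists were chosen with earlier results of these data known.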

Additional observations from a re-analysis of the deposited data

Results flagged for a closer look

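PPP1CB, a catalytic subunit of protein phosphatase PP1, responded to Dex differently in siPRMT5 and siNS cells by a test of that difference. Its mean was 216 ± 34.3 CPM in siNS Eth and 212 ± 16.2 CPM in siNS Dex (SD, n = 3), and 231 ± 38.5 CPM in siPRMT5 Eth and 341 ± 23.0 CPM in siPRMT5 Dex. The interaction was 0.58 (95% interval 0.25 to 0.92, adjusted p = 0.0408) by edgeR, and adjusted p = 0.0261 by DESeq2. It lay between 0.49 and 0.73 over the 25 alternatives, with adjusted p from 8.73e-05 to 0.13, and it did not pass without siNS Eth replicate 1, siNS Dex replicate 1, siPRMT5 Eth replicate 1, siPRMT5 Dex replicate 1, siNS Dex replicate 2, siPRMT5 Eth replicate 2, siPRMT5 Dex replicate 2, siHP1g Eth replicate 2, siNS Eth replicate 3 or siNS Dex replicate 3 (0.051 to 0.13).

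The siRNA target PRMT5 met the same test: its mean was 7.41 ± 1.17 CPM in siPRMT5 Eth and 10.5 ± 1.07 CPM in siPRMT5 Dex (SD, n = 3), against 249 ± 20.0 and 239 ± 11.4 CPM in siNS Eth and siNS Dex. The interaction was 0.57 (95% interval 0.26 to 0.89, adjusted p = 0.0297) by edgeR, and adjusted p = 0.0123 by DESeq2, and it did not pass without siPRMT5 Dex replicate 1, siPRMT5 Eth replicate 2, siPRMT5 Dex replicate 2, siNS Eth replicate 3, siNS Dex replicate 3 or siPRMT5 Eth replicate 3 (0.0543 to 0.102). Whether it bears on the difference of any member between Eth and Dex was not tested.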

How the results depend on the processing

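Over the 88 member differences that passed and their 2200 alternative values, 2033 also passed in the same direction, 167 had the same direction but did not pass, and 0 reversed. Differences that did not pass are outside this count, and some near 0 turned sign with library size alone. For siHP1g in Eth, where 16 members passed, library size alone gave 10 and no filter on low counts 8. An adjusted p under 0.01 with a 1.5-fold change gave 0 in siHP1g Eth, 0 in siHP1g Dex and 1 (SRPK1) in each of the siPRMT5 comparisons with siNS and with siHP1g. No filter gave 1 (SRSF1) in each interaction. With pseudogene counts added to the member, HNRNPR lost its call in siHP1g Eth. Between the depletions, HNRNPA3 lost its call in Eth and HNRNPL in Dex. In siPRMT5 Dex this setting gave 12 members higher and 7 lower, against 12 and 5. Dex in siPRMT5 cells gave 8 at an adjusted p under 0.05 with no fold limit, an alternative chosen after seeing the data. The cause was not tested.

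Leaving out each library in turn gave 8 to 17 members in siHP1g Eth, 4 to 8 in siHP1g Dex, 11 to 14 in siPRMT5 Eth, 13 to 19 in siPRMT5 Dex, 11 to 18 and 12 to 18 between the depletions in Eth and Dex, 0 to 1 in the siPRMT5 interaction, and 0 to 0 in the siHP1g interaction and in each Dex response. The counts moved most without siNS Eth replicate 1 (9) or 3 (8) and siHP1g Eth replicate 1 (10) or 3 (10) in siHP1g Eth, without siHP1g Dex replicate 1 (4) or 2 (4) and siNS Dex replicate 3 (4) in siHP1g Dex, without siPRMT5 Eth replicate 3 (11) between the depletions in Eth, and without siNS Eth replicate 2 (1) in the siPRMT5 interaction.

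With the replicate block the counts were 0 for Dex in siNS, 16 and 8 for siHP1g in Eth and Dex, 14 and 18 for siPRMT5, 18 and 17 between the depletions, and 0 for each interaction and for Dex in siHP1g and siPRMT5 cells. Of 45 pairs of libraries with the same replicate number, 6 correlated above 0.1 after group means were removed (r from -0.186 to 0.315, median 0.00663), as did 9 of 90 pairs with other numbers (-0.316 to 0.315, median -0.00474), and 10 of 18 libraries correlated best with their own number. Replicates of a group differed by more than counting error (chi-square per degree of freedom 2.01 to 11.3).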
